A study of Mus musculus with 12 samples.

Results

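The genes described here are 8 transcripts of skeletal muscle that were measured in fractions of mouse fat: Acta1, Myl1, Mylpf, Ckm, Tnnt3, Tnni2, Pvalb and Atp2a1. Every probe set whose only symbol in the platform annotation was one of these 8 was taken, which gave 12 of the 12422 probe sets on the array and 8 of the 8251 genes with such a probe set. A probe set is a group of short oligonucleotides that together measure a transcript. The question addressed was whether the 8 rose and fell together over the arrays or each in a pattern of its own.

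Fat was taken from 10 male C57BL/6 mice aged 42 to 49 days and pooled by depot, subcutaneous fat from the flank and intraabdominal fat from around the epididymis, with no treatment or mutant allele in any group. Collagenase released the cells, and the floating cells were collected as adipocytes. The pelleted stromo-vascular fraction (SVF), which holds the precursor, endothelial and immune cells of fat, was freed of red cells, plated, and its RNA taken after 16 h. Each of the 4 groups had 3 arrays: subcutaneous adipocytes, intraabdominal adipocytes, subcutaneous SVF cells and intraabdominal SVF cells. The labels do not say whether the 3 arrays of a group came from separate pools, so every p-value here measures only the spread between these arrays, which may be technical.

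In a fast muscle fibre the thin filament is built of alpha-actin, which Acta1 encodes, and is switched by the troponin complex, of which Tnnt3 and Tnni2 encode the fast T and I subunits. Myosin pulls on it with the help of an essential light chain, encoded by Myl1, and a regulatory light chain, encoded by Mylpf. Atp2a1 encodes the pump that returns calcium to the sarcoplasmic reticulum, Pvalb encodes the calcium buffer parvalbumin, and Ckm encodes the muscle creatine kinase that regenerates ATP. Mature fast fibres carry all 8 transcripts at high levels, and fat cells build no sarcomeres.

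Muscle promoters often hold E-boxes, bound by factors of the MyoD family, CArG boxes, bound by serum response factor, and MEF2 boxes. RefSeq windows of 250 bases before to 50 bases after the gene start (GRCm38.p6) were found for 6 of the 8 genes, all but Tnnt3 and Tnni2. The windows of Myl1 (chr1:66945007-66945306, minus strand) and Acta1 (chr8:123894726-123895025, minus strand) are printed 5′ to 3′ because the results turn on these 2 genes. Capitals mark E-boxes (CANNTG) and the CArG box, searched on both strands.
Myl1: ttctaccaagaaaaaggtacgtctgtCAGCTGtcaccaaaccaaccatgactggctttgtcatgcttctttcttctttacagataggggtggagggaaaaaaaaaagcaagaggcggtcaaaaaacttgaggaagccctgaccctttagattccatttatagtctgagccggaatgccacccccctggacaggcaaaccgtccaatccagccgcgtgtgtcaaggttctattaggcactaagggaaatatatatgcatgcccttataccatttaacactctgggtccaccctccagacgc
Acta1: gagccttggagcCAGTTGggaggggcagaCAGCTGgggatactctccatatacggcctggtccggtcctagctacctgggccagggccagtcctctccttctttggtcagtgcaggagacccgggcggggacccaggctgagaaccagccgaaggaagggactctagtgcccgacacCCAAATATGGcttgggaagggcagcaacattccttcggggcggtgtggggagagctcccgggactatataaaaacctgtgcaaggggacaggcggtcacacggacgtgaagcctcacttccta
The Acta1 window held 2 E-boxes and 1 CArG box, and the Myl1 window 1 E-box and no CArG box. An E-box was present in 72.3% of the 32817 windows in the table and a CArG box in 1.63%. The E-box of the form CAGCTG, which overlaps the general motif and was singled out after the matches were seen, lay in the windows of Myl1, Acta1, Ckm, Mylpf and Atp2a1 and in 16.3% of all windows. Pvalb had 2 windows, 1 with a MEF2 box, present in 3.19% of all windows, and 1 with 2 E-boxes. These matches describe letters in a window and say nothing of binding in these cells.

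Values are MAS5 signals as deposited, a linear brightness, with a median of 496.6 over all probe sets and arrays. The fractions carried the markers of their labels: the summed signal of 7 adipocyte probe sets (6 genes, among them adiponectin and leptin) lay between 319096 and 350761 in subcutaneous adipocytes and between 378500 and 470831 in intraabdominal adipocytes, against 2810 to 4588 in subcutaneous and 3074 to 3750 in intraabdominal SVF cells. The ratio of actin signal at the 3′ and 5′ ends of the transcript, which can rise as RNA breaks down, was 2.85 ± 0.43 for subcutaneous and 2.04 ± 0.29 for intraabdominal adipocytes, and 1.22 ± 0.02 for subcutaneous and 1.17 ± 0.05 for intraabdominal SVF cells (mean ± SD, n = 3 each). The overnight culture and this ratio moved with the fraction, and their part in any difference between adipocytes and SVF cells cannot be told apart from the fraction itself. Within adipocytes the ratio also moved with the depot, at 2.35 to 3.10 in subcutaneous and 1.71 to 2.24 in intraabdominal arrays, and the same ratio for Gapdh averaged 2.06 and 1.73. With the actin ratio as a covariate the calls between the depots in adipocytes dropped to 97 of 8695, against 707 without it. Fewer cells of a type and less RNA per cell cannot be told apart in such bulk samples. Differences below are of log2(signal + 40.2), tested with limma over the 8695 probe sets that remained after the dimmest 30% were left out, and called at an adjusted p under 0.05. The added constant makes the folds of dim genes too small.

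Of the 12 probe sets, 6 were bright enough to be tested, for Acta1, Myl1, Mylpf, Ckm, Pvalb and Atp2a1. The other 6 fell below the limit, among them the only probe sets of Tnnt3 and Tnni2. The plot of the 12 probe sets by array shows every value.

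**Figure D1:**
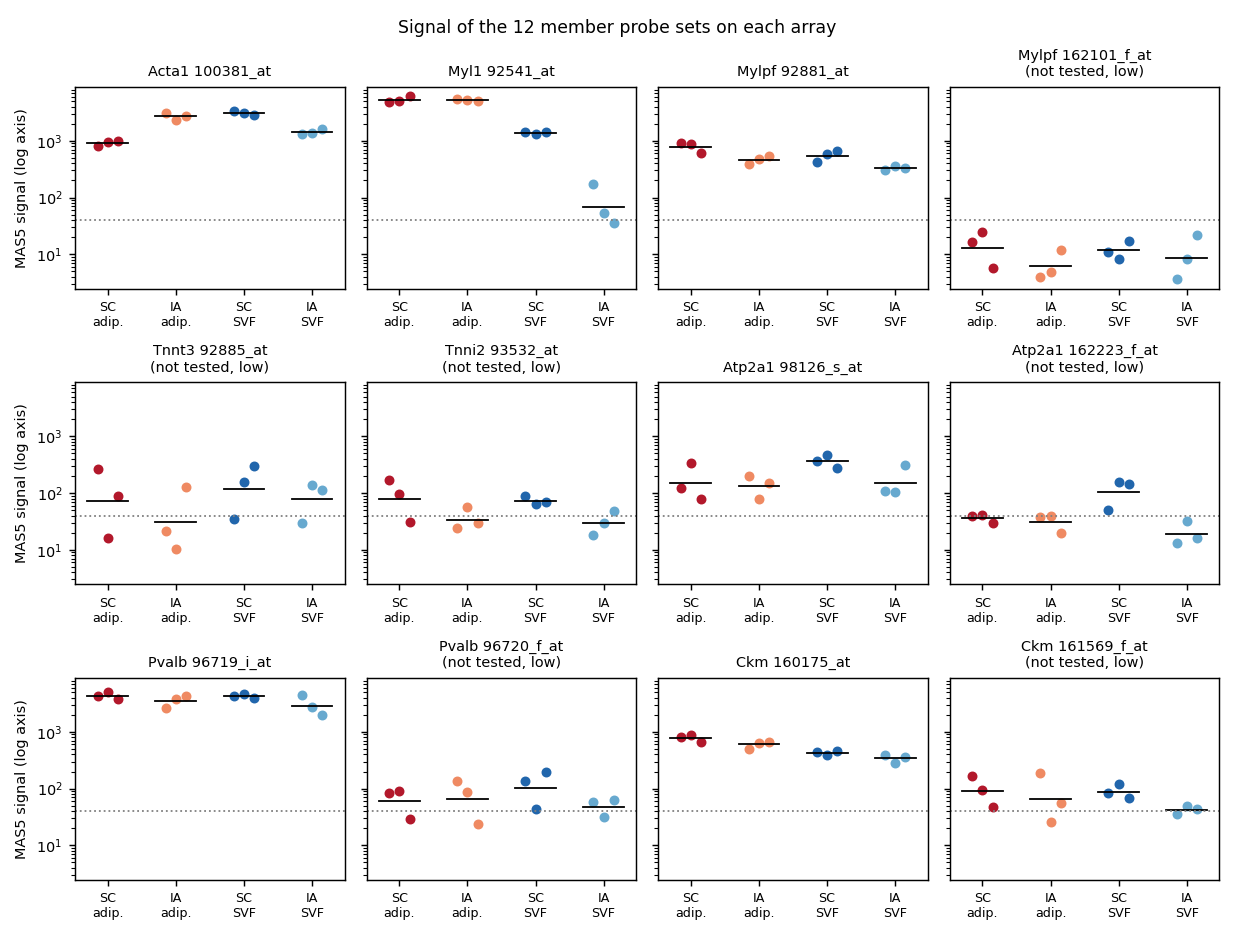
Signal of each of the 12 probe sets (log axis) on each of the 12 arrays, by group (SC, subcutaneous, IA, intraabdominal, adip., adipocytes), with the group's geometric mean as a bar and the added constant of 40.2 as a dotted line. Acta1 was lowest in subcutaneous adipocytes (815 to 1006), Myl1 in intraabdominal SVF cells (34.9 to 174), and the 6 dim probe sets stayed at or below 296.

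Acta1, the alpha-actin of the skeletal thin filament, differed between the depots in opposite directions in the 2 fractions. Its signal (probe set 100381_at) was 815, 934 and 1006 in subcutaneous adipocytes, against 3039, 2315 and 2790 in intraabdominal adipocytes. In SVF cells it was 3290, 3129 and 2891 in the subcutaneous depot, against 1344, 1348 and 1618 in the intraabdominal depot. The 2 depots did not overlap in either fraction, and the subcutaneous arrays were the lower in adipocytes and the higher in SVF cells. Acta1 was 2.87-fold lower in subcutaneous than in intraabdominal adipocytes (log2 difference -1.52 ± 0.15 SE, adjusted p = 3.80e-05). With the actin ratio as a covariate that difference was -1.26 and still called (adjusted p = 0.0236). It was 2.13-fold higher in subcutaneous than in intraabdominal SVF cells (log2 difference 1.09 ± 0.15, adjusted p = 0.000192). The difference between these depot effects was itself called, at -2.61 ± 0.22 on the log2 scale (95% interval -3.08 to -2.15, adjusted p = 3.62e-06). Seen by fraction, Acta1 was lower in adipocytes than in SVF cells of the subcutaneous depot (log2 difference -1.72 ± 0.15, adjusted p = 2.76e-07) and higher in those of the intraabdominal depot (0.90 ± 0.15, adjusted p = 0.000185). The subcutaneous call was lost with the actin ratio as a covariate (-1.05, adjusted p = 0.198).

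The order of the Acta1 group means was 3103 ± 201 in subcutaneous SVF cells, 2715 ± 368 in intraabdominal adipocytes, 1437 ± 157 in intraabdominal SVF cells and 918 ± 96.5 in subcutaneous adipocytes (SD, n = 3 each). The first 2 of these overlapped, since the highest intraabdominal adipocyte array (3039) lay above the lowest subcutaneous SVF array (2891). The other neighbours did not overlap.

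Actins are close relatives, and probes designed for one can be reached by another, so the other actins were read beside Acta1. Smooth muscle alpha-actin, Acta2, averaged 14716 ± 612 in subcutaneous and 40046 ± 2558 in intraabdominal SVF cells, and was lower in the subcutaneous depot (log2 difference -1.44, adjusted p = 0.00144), the reverse of Acta1 in that fraction. In adipocytes Acta2 averaged 1450 ± 508 in the subcutaneous and 2562 ± 1018 in the intraabdominal depot, a difference in the direction of Acta1 that was not called (-0.80, adjusted p = 0.0712). Cardiac alpha-actin, Actc1 (101029_f_at, a probe set for a family), averaged 4011 ± 347 in subcutaneous and 12493 ± 3148 in intraabdominal SVF cells and was likewise lower in the subcutaneous depot (-1.60, adjusted p = 0.000136), with 1764 ± 538 in subcutaneous and 1566 ± 170 in intraabdominal adipocytes. Actg1, a cytoplasmic actin, averaged 36866 ± 2759 in subcutaneous and 61162 ± 814 in intraabdominal adipocytes (-0.73, adjusted p = 0.0013), the same direction as Acta1 in that fraction, and 73979 ± 3700 in subcutaneous and 73964 ± 8642 in intraabdominal SVF cells. Actb averaged 4199 ± 712 in subcutaneous and 2687 ± 1193 in intraabdominal adipocytes (101578_f_at), the reverse of Acta1, with overlap. Its probe set 95705_s_at ran the same way, at 3195 ± 1229 and 1903 ± 699. In SVF cells these read 499 ± 118 and 608 ± 551, and 746 ± 192 and 346 ± 119. Actg2 averaged 2047 ± 403 and 1784 ± 270 in adipocytes, and 1785 ± 216 and 18743 ± 1976 in SVF cells, in the same order. Whether signal from another actin entered the Acta1 values was not tested.

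Myl1, the essential light chain, had overlapping levels in adipocytes of both depots and was far higher in subcutaneous than in intraabdominal SVF cells. Its signal (92541_at) was 4899, 5050 and 6150 in subcutaneous adipocytes, against 5378, 5239 and 5061 in intraabdominal adipocytes, and the groups overlapped. In SVF cells it was 1418, 1301 and 1423 in the subcutaneous depot, against 174, 53.9 and 34.9 in the intraabdominal depot, with every subcutaneous array above every intraabdominal one. The intraabdominal SVF arrays spread the most, with array 1 at 174 and array 3 below the added constant.

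In adipocytes the Myl1 depot difference was 0.03 ± 0.28 on the log2 scale (95% interval -0.58 to 0.64, adjusted p = 0.956). In SVF cells Myl1 was higher in the subcutaneous depot (12.4-fold with the constant added, log2 difference 3.63 ± 0.28, adjusted p = 8.43e-07). This value leaned on the added constant, and was 3.99 with a constant of 16 and 2.49 with 200, called under both. The depot differences of the 2 fractions differed by -3.60 ± 0.40 (95% interval -4.46 to -2.73, adjusted p = 5.59e-05). Adipocytes exceeded SVF cells in the subcutaneous depot (3.79-fold, log2 difference 1.92 ± 0.28, adjusted p = 4.72e-05) and in the intraabdominal depot (log2 difference 5.52 ± 0.28, adjusted p = 6.69e-10). The intraabdominal value too leaned on the added constant, at 5.90 with 16 and 4.27 with 200, since its SVF arrays read near that constant. With the actin ratio as a covariate the subcutaneous difference was 2.31 and no longer called (adjusted p = 0.164).

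Mylpf, the regulatory light chain that sits beside the Myl1 product on the same myosin, had 2 probe sets. The brighter (92881_at) read 916, 867 and 607 in subcutaneous adipocytes, against 391, 473 and 543 in intraabdominal adipocytes. It read 426, 582 and 649 in subcutaneous SVF cells, against 301, 359 and 328 in intraabdominal ones. The subcutaneous arrays lay above the intraabdominal arrays in both fractions without overlap, yet neither difference was called: 0.71 ± 0.25 in adipocytes (adjusted p = 0.0950) and 0.67 ± 0.25 in SVF cells (adjusted p = 0.103). The adipocyte difference was called once subcutaneous array 3 was left out (0.88, adjusted p = 0.0492). The depot differences of the 2 fractions differed by 0.04 ± 0.35. The other Mylpf probe set, 162101_f_at, was among the dimmest on the array and read 3.59 to 24.2 over the 12 arrays.

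Ckm, the muscle creatine kinase, was called higher in adipocytes of both depots. Its brighter probe set (160175_at) read 797, 878 and 667 in subcutaneous adipocytes, against 441, 395 and 454 in subcutaneous SVF cells. In the intraabdominal depot it read 509, 649 and 653 in adipocytes, against 392, 283 and 359 in SVF cells. Adipocyte arrays were above SVF arrays without overlap, 1.74-fold in the subcutaneous depot (log2 difference 0.80 ± 0.23, adjusted p = 0.00840) and 1.68-fold in the intraabdominal depot (0.74 ± 0.23, adjusted p = 0.0129). With the actin ratio as a covariate the subcutaneous difference turned to -0.34 (adjusted p = 0.814) and the intraabdominal call was lost (adjusted p = 0.999). Without intraabdominal SVF array 2 the intraabdominal difference was 0.62 and not called (adjusted p = 0.0590). Between depots the subcutaneous arrays were the higher in both fractions, again without overlap and without a call, at 0.35 ± 0.23 in adipocytes (adjusted p = 0.360) and 0.30 ± 0.23 in SVF cells (adjusted p = 0.474).

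The dim Ckm probe set, 161569_f_at, read 25.6 to 188 over the 12 arrays. Ckb, the brain-type creatine kinase, averaged 2193 ± 255 in adipocytes and 3334 ± 354 in SVF cells of the subcutaneous depot, and 2746 ± 582 in adipocytes and 7239 ± 855 in SVF cells of the intraabdominal depot (SD, n = 3 each). Its means thus ran the other way from those of Ckm in both depots.

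Pvalb, the calcium buffer, gave a high signal in every group from one probe set and a low one from the other. The bright one (96719_i_at, a set that lacks some of the intended probes) read 4267, 5135 and 3786 in subcutaneous adipocytes, against 2637, 3751 and 4358 in intraabdominal adipocytes. In SVF cells it read 4281, 4699 and 3918 in the subcutaneous depot, against 4496, 2791 and 1970 in the intraabdominal depot. The groups overlapped in every comparison. None of its differences was called, and the largest was 0.55 ± 0.25 between the SVF fractions (adjusted p = 0.187). It rested on single intraabdominal arrays, at 0.86 and called without array 1 (adjusted p = 0.0224) and 0.27 without array 3 (adjusted p = 0.577). The second Pvalb probe set, 96720_f_at, read 23.4 to 194 and was left out as dim, so the 2 sets give unlike pictures of the transcript, and which of them reads it was not tested.

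Atp2a1, the calcium pump, was dim. Its tested probe set (98126_s_at, which can be shared between transcripts) read 121, 345 and 80.0 in subcutaneous adipocytes, against 200, 77.5 and 150 in intraabdominal adipocytes, and 372, 462 and 281 in subcutaneous SVF cells, against 110, 104 and 308 in intraabdominal ones. The groups overlapped and no difference was called. The SVF depot difference was 1.05 ± 0.50 (adjusted p = 0.214), and the difference between adipocytes and SVF cells of the subcutaneous depot was -1.05 ± 0.50 (adjusted p = 0.0919), called without subcutaneous adipocyte array 2 (-1.54, adjusted p = 0.0185).

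The second Atp2a1 probe set, 162223_f_at, was left out as dim. It read 51.2, 160 and 142 in subcutaneous SVF cells, against 13.1, 31.8 and 16.3 in intraabdominal ones, without overlap. With no filter on dim probe sets that difference was 1.31 ± 0.32 (adjusted p = 0.0168).

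Both troponin subunits were dim. Tnnt3 (92885_at) read 262, 16.2 and 89.3 in subcutaneous adipocytes, against 21.5, 10.4 and 130 in intraabdominal adipocytes, and 35.5, 160 and 296 in subcutaneous SVF cells, against 29.6, 141 and 114 in intraabdominal ones. Arrays of each group differed several-fold and all groups overlapped. Tnni2 (93532_at) read 169, 94.7 and 31.2 in subcutaneous adipocytes, against 24.3, 56.1 and 29.1 in intraabdominal adipocytes, and 88.2, 64.5 and 68.2 in subcutaneous SVF cells, against 18.0, 29.8 and 47.8 in intraabdominal ones. The Tnni2 depots overlapped in adipocytes and not in SVF cells, where the difference without the filter was 0.67 ± 0.37 (adjusted p = 0.360).

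Read together, 1 of the 6 tested probe sets was called between the depots in adipocytes, Acta1, where 8.13% of all tested probe sets were called. Between the depots in SVF cells 2 of 6 were called, Acta1 and Myl1, where 12.9% of all were. Adipocytes against SVF cells gave 3 of 6 calls in each depot, for Acta1, Myl1 and Ckm, beside 52.8% of all in the subcutaneous and 51.3% in the intraabdominal depot, so this share was that of the array at large. The difference between the depot effects was called for 2 of 6, Acta1 and Myl1, beside 8.43% of all. The 2 effects ran differently: the Acta1 depot difference changed sign between the fractions, and that of Myl1 was present in SVF cells and was 0.03 in adipocytes. The 8 genes were chosen with earlier results of these data known, so these shares of calls are a description and no test.

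**Figure D2:**
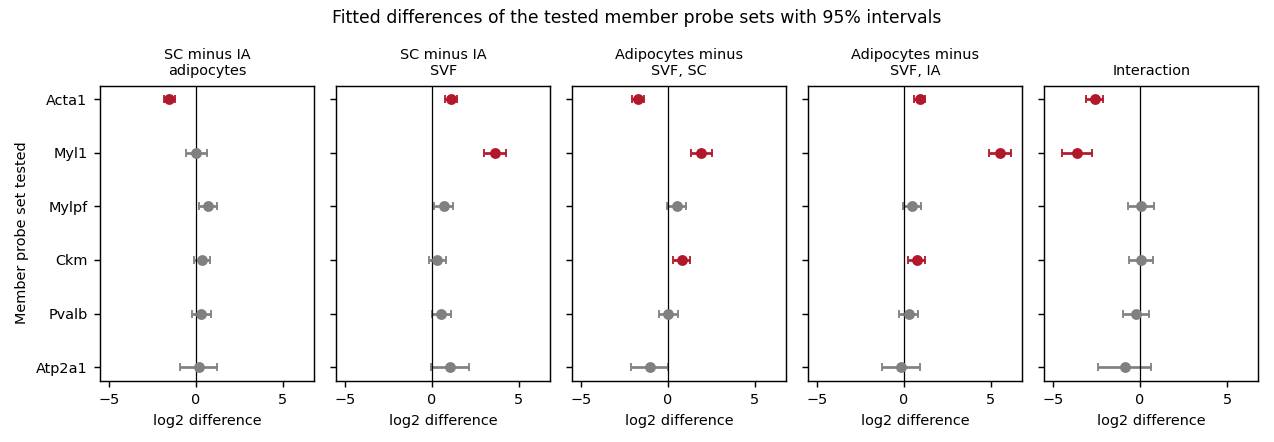
Fitted log2 differences of the 6 tested probe sets (points) with 95% intervals (lines) in each comparison, red where called at an adjusted p under 0.05 and grey otherwise. Acta1 lies at -1.52 between the depots in adipocytes and at 1.09 in SVF cells, and Myl1 at 0.03 and 3.63.

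By direction alone, all 12 probe sets had the higher mean log2 signal in subcutaneous than in intraabdominal SVF cells, as did 56.6% of all probe sets. Of the 12, 7 did not overlap (both Ckm probe sets and 1 each of Acta1, Myl1, Mylpf, Tnni2 and Atp2a1), where 17.3% of all probe sets lay higher in the same way, and none lay lower, beside 13.5% of all. In adipocytes 10 of the 12 had the higher mean in the subcutaneous depot, as did 61.8% of all probe sets and 75.0% of those left out as dim. The exceptions were Acta1 and the dim Pvalb probe set. Non-overlapping groups were seen there for 2 higher (Mylpf and Ckm) and 1 lower (Acta1), beside 13.9% and 7.98% of all probe sets.

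Within subcutaneous adipocytes, Acta1 and Myl1 did not follow the other members from array to array. Among the 3 subcutaneous adipocyte arrays, array 3 was the highest for both Acta1 (1006) and Myl1 (6150), and the lowest for 9 of the other 10 probe sets. On the log2 scale it lay 0.13 (Acta1) and 0.20 (Myl1) above the group mean. That array was also the lowest of the 3 for 42.6% of all probe sets and for 51.2% of those left out as dim. Of lists read below, it was the lowest for 8 of 9 smooth muscle, 20 of 33 myogenic and 20 of 36 other fast-fibre probe sets. It was the lowest for 3 of 7 adipocyte and 1 of 8 brown-fat probe sets. Its 10th percentile of signal, 40.7, was the lowest of the group. Array 1 of that group was the highest for 4 of the 12 probe sets, beside 40.7% of all, and its 10th percentile of signal was 63.6, against a group mean of 52.3 ± 11.5. The same array was also the highest for 20 of the 36 other fast-fibre probe sets read below (55.6%, beside 49.2% of those left out as dim). In intraabdominal adipocytes array 1 was the highest for Acta1, Myl1 and 3 of the other 10 probe sets, beside 29.3% of all. In intraabdominal SVF cells Myl1 and the bright Pvalb probe set fell together over arrays 1 to 3, and Acta1 was highest on array 3. In subcutaneous SVF cells Acta1 was highest on array 1 and Myl1 on array 3. The summed signal of the 8 probe sets of the members other than Acta1, Myl1 and Pvalb lay between 1557 and 2487 in subcutaneous adipocytes, against 1335 to 1592 in intraabdominal adipocytes, and between 1508 and 1975 in subcutaneous SVF cells, against 903 to 1238 in intraabdominal ones. The SVF sums did not overlap between depots and the adipocyte sums did.

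Other transcripts of the fast fibre were read from a list of 37 genes, of which 29 were on the array with 36 probe sets and 16 probe sets of 15 genes were tested. None was called higher in the subcutaneous depot in either fraction. In adipocytes 1 was called lower and in SVF cells 3, where 8.13% and 12.9% of all tested probe sets were called in either direction. The medians of the tested differences were 0.20 and 0.16, beside 0.07 and 0.06 for all tested probe sets. The adipocyte call was Ampd3 (571 ± 132 in subcutaneous and 1435 ± 386 in intraabdominal adipocytes, log2 difference -1.26, adjusted p = 0.00122), an AMP deaminase better known from red cells than from fibres. The SVF calls were Actn3, the fast-fibre alpha-actinin of the Z-disc (100879_at, 226 ± 75.8 in subcutaneous and 742 ± 50.3 in intraabdominal cells, -1.59, adjusted p = 0.00472), Eno3, the muscle enolase (1010 ± 107 and 1877 ± 266 in the same order, -0.86, adjusted p = 0.0205), and Myh4, a fast myosin heavy chain (222 ± 123 and 544 ± 125, -1.23, adjusted p = 0.0254). These 3 probe sets ran opposite to Acta1 and Myl1 in that fraction. The second Actn3 probe set, 162164_f_at, overlapped between the depots and was not called (-0.81, adjusted p = 0.287). The Myh4 value came from 161545_r_at, and the other Myh4 probe set, 98488_at, was too dim to test, as were those of Myh1, Myh2 and Mb. The means of 98488_at ran the other way, at 42.8 ± 42.6 in subcutaneous and 14.1 ± 4.27 in intraabdominal SVF cells, with overlap.

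Adipocytes against SVF cells gave 2 calls higher and 1 lower among these 16 in the subcutaneous depot, and 1 higher and 4 lower in the intraabdominal depot, with medians of 0.03 and -0.24. Over all tested probe sets 52.8% and 51.3% were called in these comparisons. The lower calls were Ampd3 in the subcutaneous depot (-4.97) and Ampd3 (-3.49), Actn3 (100879_at, -2.27), Cox6a2, a muscle subunit of cytochrome oxidase (-1.99), and Eno3 (-1.08) in the intraabdominal depot. The higher calls were Myh4 (161545_r_at, 1.39) in the subcutaneous depot and Phkg1 in both. Phkg1, a phosphorylase kinase subunit, was higher in adipocytes of both, at 527 ± 75.3 against 207 ± 36.4 in subcutaneous (1.20, adjusted p = 0.00806) and 527 ± 54.4 against 133 ± 77.5 in intraabdominal SVF cells (1.81, adjusted p = 0.000395).

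Without the filter on dim probe sets, 24 of the 36 had the higher mean in subcutaneous than in intraabdominal SVF cells (66.7%, beside 56.6% of all probe sets). Of these 3 lay higher without overlap, and 3 others lay lower (8.33% each, beside 17.3% and 13.5% of all). In adipocytes 27 of the 36 had the higher mean in the subcutaneous depot (75.0%, beside 61.8% of all and 75.0% of those left out as dim). Without overlap 3 lay higher and 2 lower (8.33% and 5.56%, beside 13.9% and 7.98% of all). The summed signal of the list without Ampd3 lay between 7764 and 12002 in subcutaneous and 6918 and 8099 in intraabdominal adipocytes, and between 8148 and 8932 in subcutaneous and 8517 and 9718 in intraabdominal SVF cells. The depots overlapped in both fractions, unlike those of Acta1. Such a sum is carried by bright probe sets, such as Eno3 (group means 876 to 1877). It says little of dim ones, such as Myh1 (48.8 to 148). The part of muscle tissue in any of these signals was not tested.

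**Figure D3:**
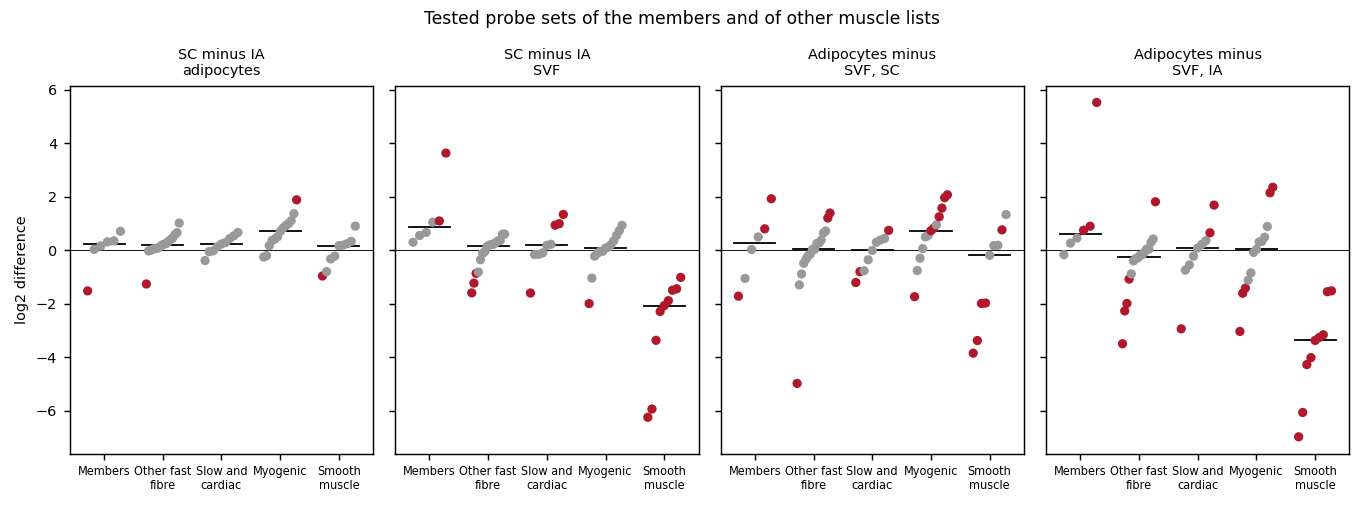
Log2 difference of each tested probe set (points) of the 8 genes and of the other muscle lists, with the median of each list as a bar, in the comparisons of depots and of fractions, red where called and grey otherwise. Between the depots in SVF cells Myl1 lies at 3.63 and Acta1 at 1.09, while the median of the other fast-fibre probe sets is 0.16 and that of smooth muscle -2.07.

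Of the slow-fibre and cardiac list (16 genes, 15 on the array, 9 probe sets tested) 3 probe sets were called higher in subcutaneous than in intraabdominal SVF cells and 1 lower, Actc1. Myl4, the atrial and embryonic essential light chain, gave 2 of these, with 1261 ± 108 in subcutaneous and 650 ± 153 in intraabdominal cells for 100828_at (0.93, adjusted p = 0.00818) and 533 ± 44.2 and 190 ± 46.0 for 160487_at (1.34, adjusted p = 0.00486). Tnni1, the slow troponin I, was the other (1612 ± 22.4 and 795 ± 80.7, 0.99, adjusted p = 0.0236). In adipocytes none of the 9 was called between the depots. Of all tested probe sets 12.9% were called between the depots in SVF cells and 8.13% in adipocytes.

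Of the myogenic list (22 genes of muscle precursors and of developing or denervated muscle, 20 on the array, 13 probe sets tested) 1 was called between the depots in each fraction. Over all tested probe sets 8.13% were called in adipocytes and 12.9% in SVF cells. The medians were 0.70 and 0.08, beside 0.07 and 0.06 for all tested. Without the filter, 25 of the 33 had the higher mean in subcutaneous adipocytes (75.8%, beside 61.8% of all and 75.0% of the dim). There 6 lay higher without overlap (18.2%, beside 13.9% of all) and none lower (beside 7.98%). In SVF cells 15 had the higher mean in the subcutaneous depot (45.5%, beside 56.6% of all). Chrng, the fetal acetylcholine receptor subunit, was higher in subcutaneous than in intraabdominal adipocytes (368 ± 51.7 and 79.0 ± 58.3, 1.88, adjusted p = 0.0188). Ncam1, an adhesion molecule of nerve and regenerating muscle, was lower in subcutaneous than in intraabdominal SVF cells (100153_at, 530 ± 51.0 and 2229 ± 149, -1.99, adjusted p = 0.00302). The other Ncam1 probe sets were too dim to test, at 235 ± 104 and 317 ± 35.1 (161750_f_at) and 91.0 ± 21.0 and 169 ± 62.3 (100152_at). The 9 smooth muscle probe sets were all called lower in subcutaneous than in intraabdominal SVF cells. The 6 brown-fat probe sets tested, of genes such as the uncoupling protein Ucp1, were all called higher in subcutaneous than in intraabdominal adipocytes, with a median of 2.95, where Acta1 was lower. Of 2 skin keratinocyte probe sets tested none was called between the depots in either fraction. Of the 7 adipocyte probe sets 2 were called lower in subcutaneous adipocytes and 1 higher in subcutaneous SVF cells, and of 6 probe sets of other actins and non-muscle genes 1 was called lower in each fraction.

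Likeness to Myl1 and Acta1 was ranked by Pearson's r over the 12 arrays among the 8694 other tested probe sets. It is a description with no test, and since the arrays form 4 groups it mostly follows the group means. The 5 genes most like Myl1 were Itih5, a stabiliser of the hyaluronan matrix (r = 0.991), Dpt, dermatopontin of the matrix (0.986), Sod2, the mitochondrial superoxide dismutase (0.982), Sparcl1, a matricellular protein (0.981), and Mt2, a metallothionein (0.979). Itih5 averaged 9739 in subcutaneous and 13293 in intraabdominal adipocytes, and 3493 in subcutaneous and 480 in intraabdominal SVF cells. None of the 5 is a gene of the sarcomere. Among the members Ckm came nearest to Myl1 (160175_at, r = 0.85, rank 358), followed by Mylpf (92881_at, 0.69), while Acta1 (0.06) and the tested Atp2a1 probe set (-0.10) were unlike it. The highest r of the slow-fibre and cardiac list was that of Myl4 (0.93, rank 43), beside a list median of 0.17 and a lowest value of -0.96. Phkg1 was the highest of the fast-fibre list (0.88, rank 218), beside a median of -0.0067 and a lowest value of -0.95. The 7 adipocyte probe sets lay between 0.74 and 0.84, with a median of 0.82.

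The 5 genes most like Acta1 were Ddx39b, an RNA helicase of mRNA export (r = 0.951), Ogn, osteoglycin (0.880), Cnbp, a nucleic-acid binding protein (0.880), Azin1, an inhibitor of antizyme (0.873), and Zfand5, a zinc-finger protein (0.847). Pearson's r does not measure the size of a change. Ddx39b averaged 4155 in subcutaneous and 5181 in intraabdominal adipocytes, and 5244 in subcutaneous and 4518 in intraabdominal SVF cells. That range was much narrower than the 918 to 3103 of the Acta1 means. Ogn averaged 1256 in subcutaneous and 4482 in intraabdominal adipocytes, and 4170 in subcutaneous and 3425 in intraabdominal SVF cells. The tested member nearest to Acta1 was Atp2a1 (98126_s_at, r = 0.42, rank 994), and r was negative for Ckm (-0.36) and Mylpf (-0.32). In SVF cells, however, Ckm and Mylpf lay higher in the subcutaneous depot, as Acta1 did, though without a call. Actg1 reached 0.71 (rank 88), the highest of the list of other actins and non-muscle genes, whose median was -0.10. Acta2 reached 0.24, the highest of the smooth muscle list, whose median was -0.048.

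**Figure D4:**
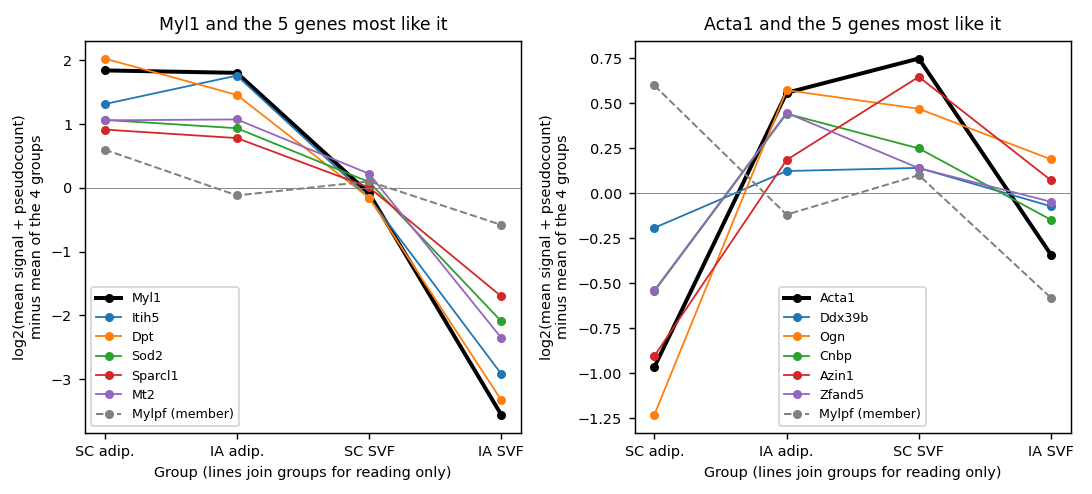
Group means, as log2(mean signal + 40.2) less the mean of the 4 groups, of Myl1 and of Acta1 (thick black lines) with the 5 genes most like each (coloured lines) and with Mylpf (dashed). Myl1 and its partners are lowest in intraabdominal SVF cells, and Acta1 is lowest in subcutaneous adipocytes, as are its 5 partners.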

How the data were processed

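RNA of 12 samples (4 groups of 3) was measured on Affymetrix arrays. The deposited intensity values are MAS5 signals, per the submitters' processing notes, whose version is not given in the sources used here; detection calls were not used here. No scaling was added, since the 2% trimmed mean differed between arrays by at most a factor of 1.00017. Of 12488 probe sets 66 controls were left out. Of the 12422 kept, 10833 had 1 symbol in the platform annotation, 396 several and 1193 none. To each signal 40.2, the 10th percentile of all values, was added before log2. The lowest 30% by mean log2 signal were left out (cut at 7.73). The remaining 8695 were fitted with limma 3.58.1 in R 4.3.3 (4 group means, 12 arrays, eBayes with trend) and adjusted by Benjamini-Hochberg, called at 0.05. The fit was tested on simulated data. The number of arrays limits the precision: the median SE of a difference was 0.24. Named beside the members were called genes of 8 gene lists (up to 6 per list and comparison) and the 5 genes most like Myl1 and Acta1. Members and lists were chosen with earlier results of these data known. Alternatives were other constants, filters, scalings and fits, a replicate block, an actin-ratio covariate and leaving out each array.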

Additional observations from a re-analysis of the deposited data

Results flagged for a closer look

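The depot difference (subcutaneous minus intraabdominal) in adipocytes differed from that in SVF cells, by the interaction term of the limma fit, for 733 of 8695 probe sets (8.43%). Given here are the 10 of these that belong to the 8 genes, to the skeletal muscle, slow-fibre or cardiac and myogenic lists, or to the actins and creatine kinase read beside them. In the other lists, 7 smooth muscle probe sets (Actg2 among them) and 5 brown-fat probe sets were called higher and 1 adipocyte probe set lower. Acta1 had an interaction of -2.61 on the log2 scale (adjusted p = 3.62e-06), with opposite signs in the 2 fractions. Myl1 had -3.60 (adjusted p = 5.59e-05), with 5366 ± 683 in subcutaneous and 5226 ± 159 in intraabdominal adipocytes, and 1381 ± 69.0 in subcutaneous and 87.7 ± 75.7 in intraabdominal SVF cells (SD, n = 3 each). Of the fast-fibre list, Actn3 had 1.78 (adjusted p = 0.0305) and Ampd3 -1.48 (adjusted p = 0.00311). Myl4 (160487_at) had -1.39 (adjusted p = 0.0432), the same sign as Myl1. Actc1 had 1.73 (adjusted p = 0.00237), Ncam1 3.09 (adjusted p = 0.00255) and Actg2, the enteric smooth muscle actin, 3.55 (adjusted p = 1.02e-06). Actg1 had -0.74 (adjusted p = 0.00907), the same sign as Acta1, and Ckb 0.80 (adjusted p = 0.0492). Groups of 3 arrays were not screened for single outlying arrays.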

How the results depend on the processing

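Over all alternatives run, Acta1 kept its call between the depots in adipocytes (-1.74 to -1.26), and both Acta1 (1.02 to 1.18) and Myl1 (2.49 to 4.08) kept theirs in SVF cells, as did their interactions (-2.77 to -2.38 for Acta1, -4.05 to -2.46 for Myl1). Of the 614 differences of members recomputed under an alternative, 568 kept direction and side, 35 reversed, 4 lost a call in the same direction and 7 gained one. Among the reversed, Ckm in subcutaneous adipocytes against SVF cells also lost its call, with the actin ratio as a covariate. The cause of these changes was not tested. Over all probe sets, calls between the depots in adipocytes were 707, and 299 with only the compared arrays, 97 with the actin ratio as a covariate, and 365 to 949 leaving out 1 array each (365 without intraabdominal adipocyte array 2, 372 without array 1). With the covariate, calls fell to 1058 (from 4595 in all) for subcutaneous adipocytes against SVF cells (the subcutaneous pair), to 2173 (from 4462) for the same comparison in the intraabdominal depot (the intraabdominal pair) and to 403 (from 733) for the interaction, and no member was called in the subcutaneous pair (0, against 3). The covariate also turned Ckm (-0.10), Pvalb (-0.20) and Atp2a1 (-0.16) between the depots in adipocytes, Ckm (-0.34), Mylpf (-0.74) and Pvalb (-1.27) in the subcutaneous pair, Mylpf (-0.35) and Pvalb (-0.58) in the intraabdominal pair, and the interactions of Ckm (-0.35) and Mylpf (-0.39); none of these was called with the covariate. Centring each array on its median turned the uncalled depot differences in adipocytes of Myl1 (-0.19) and Atp2a1 (-0.059) and the interactions of Ckm (-0.11) and Mylpf (-0.12), and quantile normalization those of Atp2a1 (-0.16), Ckm (-0.043) and Mylpf (-0.052). Centring moved the median of all probe sets between the depots in adipocytes to -0.15, against 0.07 as deposited, with 172 of 958 calls higher, against 345 of 707. For the interaction it gave 229 of 695, against 339 of 733. Mylpf was called higher in intraabdominal adipocytes than in SVF cells with centring (0.61, adjusted p = 0.0395) or quantile normalization (0.59, adjusted p = 0.0465). Leaving out 1 array each, 1 to 2 members were called between the depots in adipocytes. The uncalled differences that turned ranged from -0.070 to 0.093 (Myl1) and -0.33 to 0.51 (Atp2a1) between the depots in adipocytes, -0.092 to 0.13 (Pvalb) in the subcutaneous pair, and -0.015 to 0.57 (Pvalb) and -0.39 to 0.25 (Atp2a1) in the intraabdominal pair. The interactions ranged from -0.057 to 0.17 (Ckm), -0.12 to 0.22 (Mylpf) and -0.55 to 0.039 (Pvalb). Pvalb was called in the intraabdominal pair without SVF array 1 (0.57, adjusted p = 0.0449), and Mylpf in the subcutaneous pair without adipocyte array 3 (0.67, adjusted p = 0.0446). The labels number the replicates 1 to 3, but arrays of the same number in different groups did not deviate together (18 pairs, r -0.086 to 0.111). With the replicate number as a block 595, 1051, 4506, 4405 and 645 probe sets were called between the depots in adipocytes, between the depots in SVF cells, in the subcutaneous pair, in the intraabdominal pair and for the interaction, and no call of a member changed. Of the 6 dim probe sets of the members, 5 gave no call in any comparison even without the filter. The exception was the second Atp2a1 probe set, 162223_f_at, which differed between the depots in SVF cells (1.31, adjusted p = 0.0168) and between adipocytes and SVF cells of the subcutaneous depot (-0.96, adjusted p = 0.0267). No detection call was used to say which signals were above background.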
